A study of Homo sapiens with 12 samples.

Results

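The 10 genes described here are the transcriptional coactivators YAP1 and WWTR1 (the gene of TAZ), their DNA-binding partners TEAD1 and TEAD4, and 6 genes known as their targets: CTGF, CYR61, ANKRD1, AMOTL1, AMOTL2 and LATS2. They were taken by symbol from the deposited count table of 26485 genes, where CTGF and CYR61 are the older symbols of CCN2 and CCN1, and all 10 passed the filter on low counts. The cells were RD, an established rhabdomyosarcoma line with features of skeletal muscle precursors and no PAX fusion gene. All of them carried an inducible hairpin construct that targets NT5E, the gene of the ecto-nucleotidase CD73, and there were 2 such constructs, titled ish and ish2. After 24 h of attachment, each construct was grown for 96 h with 10 ng/mL doxycycline (Dox), labelled as CD73 knockdown, or without it, labelled as control, in 3 libraries per group and 12 in all. Every group therefore carried a hairpin construct, Dox was present only in the knockdown groups, and no library of cells with a non-targeting hairpin and Dox was analysed here. Whether a construct stands for 1 clone or a pool, and whether replicates were separate cultures, is stated in none of the sources at hand, so the p-values measure a spread between libraries that may be technical.

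YAP and TAZ do not bind DNA themselves. They enter the nucleus, bind a TEAD factor and switch on genes of growth, matrix and cytoskeleton, and the Hippo kinases MST1 and MST2 (genes STK4 and STK3) with LATS1 and LATS2 hold them in the cytoplasm by phosphorylating them. Several targets act back on the pathway: LATS2 is one of the inhibiting kinases, and the angiomotins AMOTL1 and AMOTL2 bind YAP at junctions and on actin. In muscle precursors YAP is known to favour proliferation over differentiation, and it has been described as a driver in embryonal rhabdomyosarcoma models. The libraries measure mRNA, so they hold no information on where YAP and TAZ protein was or whether it was phosphorylated.

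The element bound by TEAD factors has the core GGAATG, and promoters of this group are shown to place that core in the genes whose levels follow. RefSeq promoter windows of GRCh38.p14, cut to the 250 bases before the listed start, were found for 7 of the 10 genes and searched for GGAATG on both strands. The core overlaps the GGAA of ETS factor motifs, and it occurs by its letters in 11.9% of the 35116 RefSeq windows of this length. It was found in 4 of the 7 genes, and WWTR1, AMOTL1 and LATS2 held no match. WWTR1 and AMOTL2 had 2 windows each, so this count by gene and the share by window are not the same measure. The sequences read 5′ to 3′ on the strand of the gene, with the core or its reverse complement CATTCC in capitals.
CTGF (chr6:131951373-131951622, minus strand): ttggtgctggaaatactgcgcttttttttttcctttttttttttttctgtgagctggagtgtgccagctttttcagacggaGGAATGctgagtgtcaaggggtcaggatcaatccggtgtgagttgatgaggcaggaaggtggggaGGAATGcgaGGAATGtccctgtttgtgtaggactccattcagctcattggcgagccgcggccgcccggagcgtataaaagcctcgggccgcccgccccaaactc
ANKRD1 (chr10:90921088-90921337, minus strand): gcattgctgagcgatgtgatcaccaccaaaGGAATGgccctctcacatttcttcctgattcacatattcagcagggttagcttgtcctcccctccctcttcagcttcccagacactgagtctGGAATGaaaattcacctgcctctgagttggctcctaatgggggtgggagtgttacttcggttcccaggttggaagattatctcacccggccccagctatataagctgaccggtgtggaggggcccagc
YAP1 (chr11:102110197-102110446, plus strand): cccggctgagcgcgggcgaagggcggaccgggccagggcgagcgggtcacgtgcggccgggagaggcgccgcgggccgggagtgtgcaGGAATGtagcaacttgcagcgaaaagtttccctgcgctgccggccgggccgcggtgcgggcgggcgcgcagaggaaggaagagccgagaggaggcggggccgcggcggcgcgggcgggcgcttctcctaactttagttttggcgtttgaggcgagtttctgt
AMOTL2 (chr3:134374448-134374697, minus strand): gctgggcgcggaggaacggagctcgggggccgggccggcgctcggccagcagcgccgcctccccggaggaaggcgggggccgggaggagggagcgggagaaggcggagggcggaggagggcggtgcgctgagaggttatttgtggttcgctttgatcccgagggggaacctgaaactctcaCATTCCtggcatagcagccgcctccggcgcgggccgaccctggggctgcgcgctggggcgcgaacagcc
The CTGF window held 3 cores, beginning 169, 104 and 95 bases before the start, and 0.0826% of all windows held at least 3. The ANKRD1 window held 2 cores, 220 and 128 bases before the start, and 0.94% of windows held at least 2. YAP1 held 1 core at 162 bases, and AMOTL2 held 1 on the opposite strand, at 69 bases before the second of its 2 listed starts. A match describes letters and does not show binding. TEAD1, TEAD4 and CYR61 are named only.

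Each library held 26566603 to 32692207 reads assigned to genes. By a chi-square test of counts per degree of freedom, ish2 no-Dox replicate 3 stood apart from replicates 1 and 2 (3.74 and 4.22, against 1.34 to 2.71 for all other pairs within a group), and calls that change without it are given with their values below. In all libraries, the lowest count of any of the 10 genes was 267 reads, for CTGF in ish with Dox. NT5E stood at 14.9, 18.0 and 17.3 CPM (reads per library total, with TMM factors, set to a common scale) in ish without Dox and at 1.94, 1.23 and 1.54 with it (log2 fold change -3.41, SE 0.11, adjusted p = 3.31e-25). In ish2 it stood at 24.1, 23.5 and 22.1 without Dox and 14.5, 15.2 and 14.1 with it (log2 fold change -0.67, SE 0.07, adjusted p = 4.62e-11). The target was thus lower with Dox in both constructs, by 10.7-fold and 1.59-fold. Muscle markers checked the cell type and moved with Dox: the summed level of 9 of them was 1271 to 1356 CPM in ish without Dox and 2791 to 2953 with it, against 1244 to 1295 and 1114 to 1137 in ish2. MYF5 had 1 read over all 12 libraries; of the other 8, 5 rose and 2 fell in ish, and 2 rose and 6 fell in ish2. Among all 15206 tested genes, 39.1% rose and 39.5% fell in ish, and 33.9% rose and 31.1% fell in ish2, which is the background for this and the other lists. MYOD1, MYOG, DES and MYH3 had log2 fold changes of 1.596, 2.62, 0.82 and 3.28 in ish, and of 0.17, -2.24, 0.65 and -1.21 in ish2. Of 18 markers of leukocyte, endothelial, epithelial and fibroblast cells, 7 passed the low-count filter, of which 2 rose and 4 fell in ish and 2 rose and 2 fell in ish2. PTPRC, CD3E, EPCAM, CDH1, KRT5, KRT14, PECAM1 and CDH5 reached at most 0.506 CPM in any library. The endothelial gene TEK fell in ish from 9.29 ± 0.19 to 2.17 ± 0.47 CPM (SD, n = 3) and the macrophage gene CD68 from 2.77 ± 0.20 to 1.86 ± 0.33, whereas the fibroblast gene LUM rose there from 0.106 ± 0.07 to 1.34 ± 0.16 and DCN stood at 0.0104 ± 0.02 without Dox and 0.503 ± 0.07 with it. The fibroblast gene COL1A1, at a far higher level, fell in ish from a mean of 170.6 to 109.8 CPM (log2 fold change -0.64, adjusted p = 9.71e-20). It also fell in ish2 (-0.22, adjusted p = 8.57e-08), where LUM rose (1.40, adjusted p = 0.0164). COL1A1 and ENG, at up to 217.8 and 130.9 CPM, made up most of the summed level of these 18. That sum ran from 285.8 to 302.6 CPM in ish without Dox and from 169.3 to 176.9 with it. In ish2 it ran from 324.1 to 350.6 without Dox and from 310.8 to 332.9 with it. An annotated antisense gene overlaps 6 of the 10 genes, and whether counting used the strand is not known from the labels. The part of muscle differentiation state in the results below was not tested, and in bulk RNA fewer cells of a type and less RNA per cell cannot be told apart.

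With Dox in ish, the coactivators YAP1 and WWTR1 and the secreted targets CTGF and CYR61 fell at least 2-fold, AMOTL1 fell less, and TEAD1, TEAD4, ANKRD1 and AMOTL2 rose. In ish2 none of YAP1, WWTR1, TEAD1 and CYR61 passed the test, CTGF, AMOTL1, LATS2 and TEAD4 rose, and ANKRD1 and AMOTL2 fell. Genes were called at a Benjamini-Hochberg adjusted p under 0.05 in edgeR's quasi-likelihood test over 15206 genes. By that rule 9 of the 10 genes were called in ish, where 78.6% of all tested genes were called, and 6 of 10 in ish2, where 65% were. In ish 4 of the 10 were called higher and 5 lower, where 39.1% and 39.5% of tested genes were, and in ish2 4 were called higher and 2 lower, where 33.9% and 31.1% were. A change of at least 2-fold was called for 4 of the 10 in ish against a background of 17.8%, and for 1 of 10 in ish2 against 6.14%. The median absolute log2 fold change of the 10 was 0.78 in ish and 0.18 in ish2, and over all tested genes it was 0.40 and 0.25. Groups with and without Dox did not overlap for all 10 genes in ish, against 80.6% of tested genes, and for 6 of the 10 in ish2, against 66.6%.

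**Figure D1:**
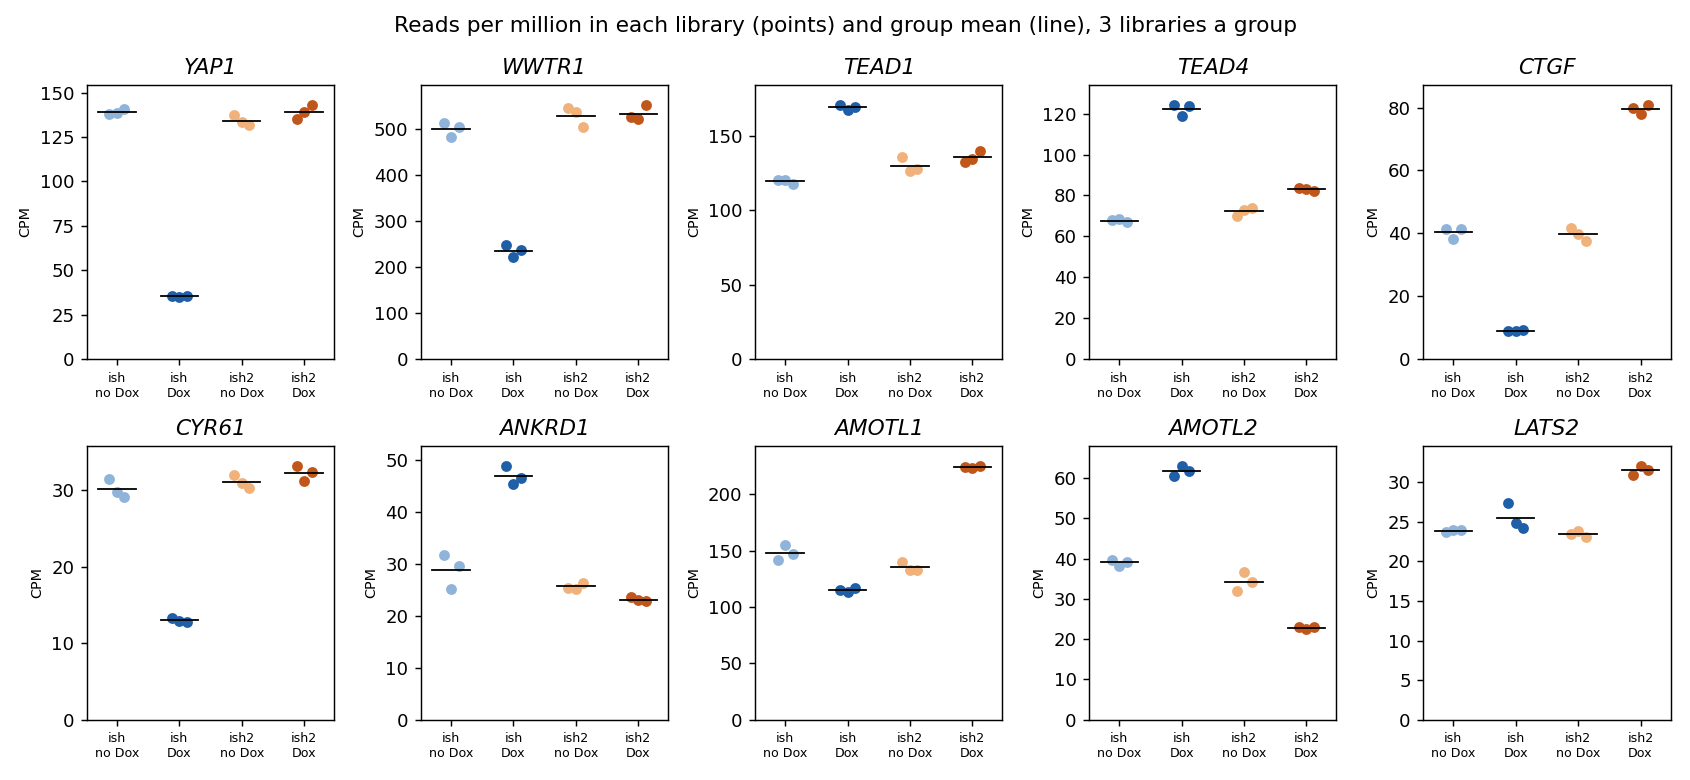
CPM of each of the 10 genes (vertical axis, from 0) in the 4 groups (horizontal axis), with 1 point for each library and a line at the mean of the 3 libraries. In ish, YAP1 goes from 138 to 141 CPM down to 34.9 to 35.5 with Dox, whereas CTGF goes down in ish and up in ish2.

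YAP1 is on chromosome 11 (chr11:102110461-102233423, plus strand, GENCODE annotation of GRCh38). It stood at 138, 138 and 141 CPM in ish without Dox and at 35.5, 34.9 and 35.3 with it. In ish2 it stood at 138, 133 and 132 without Dox and at 135, 139 and 143 with it. The ish libraries with Dox lay far below the other 9, which all fell between 132 and 143. The fall in ish was 3.95-fold (log2 fold change -1.98, SE 0.03, adjusted p = 1.60e-34), and 4.97% of tested genes changed by more. In ish2 the change was 0.05 on the log2 scale (SE 0.03, adjusted p = 0.115), with an approximate 95% interval of -0.0048 to 0.11. The effects of Dox in the constructs differed by 2.03 (ish2 minus ish, SE 0.04, adjusted p = 9.32e-31).

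WWTR1 encodes TAZ, the paralog of YAP (chr3:149517235-149736714, minus strand). Its levels were 512, 482 and 505 CPM in ish without Dox and 248, 222 and 237 with it. In ish2 they were 546, 537 and 503 without Dox and 526, 522 and 551 with it. As for YAP1, the 3 ish libraries with Dox stood apart from the other 9, and the ish2 groups overlapped. WWTR1 fell 2.12-fold in ish (log2 fold change -1.08, SE 0.04, adjusted p = 2.69e-17). In ish2 the change was 0.01 (SE 0.04, adjusted p = 0.776, interval -0.057 to 0.08), and the effects differed by 1.10 (adjusted p = 1.43e-14).

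Because YAP1 fell further than WWTR1, the balance of the coactivators shifted in ish. Per kilobase of annotated exon, WWTR1 mRNA was 2.77, 2.61 and 2.68 times YAP1 mRNA in ish without Dox and 5.22, 4.77 and 5.02 times with it. In ish2 the ratio was 2.97, 3.02 and 2.86 without Dox and 2.91, 2.82 and 2.89 with it, and these groups overlapped. The summed level of both was 81.5 ± 1.92 CPM per kilobase (SD, n = 3) in ish without Dox, 33.6 ± 1.55 with it, 84.1 ± 3.10 in ish2 without Dox and 85.4 ± 2.41 with it. The ratio and the sum were not tested apart from the genes themselves. Their size rests on the exon length taken, 8413 bases for WWTR1 and 6296 for YAP1. The longest annotated transcripts have 5030 and 5398 bases. The same lengths were used in every group.

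TEAD1 (chr11:12674591-12944483, plus strand) and TEAD4 (chr12:2959330-3040673, plus strand) encode DNA-binding partners, and TEAD4 is known from muscle differentiation as a gene downstream of MYOD1 and MYOG. TEAD4 stood at 68.0, 68.3 and 66.9 CPM in ish without Dox and at 124, 119 and 124 with it. In ish2 it went from 70.1, 72.8 and 73.9 to 83.8, 83.3 and 82.3. Of the 10 genes it was the one called higher with Dox in both constructs, where 13.8% of all tested genes were. TEAD4 rose 1.81-fold in ish (log2 fold change 0.85, SE 0.03, adjusted p = 2.00e-24) and 1.15-fold in ish2 (0.20, SE 0.03, adjusted p = 7.98e-07). The rise was larger in ish (difference -0.65, adjusted p = 7.56e-16). TEAD1 levels were 121, 121 and 118 CPM in ish without Dox and 171, 167 and 169.8 with it, a rise of 1.41-fold (log2 fold change 0.50, SE 0.03, adjusted p = 7.58e-18). In ish2 they were 136, 127 and 128 without Dox and 133, 135 and 140.1 with it, groups that overlapped. The ish2 change of 0.06 did not pass (adjusted p = 0.0617, interval 0.0049 to 0.12), and over the 19 alternatives it ran from 0.02 without ish2 Dox replicate 3 (adjusted p = 0.561) to 0.08 without ish2 no-Dox replicate 1, the one that passed (adjusted p = 0.0205). It was also 0.03 without ish2 no-Dox replicate 2 (adjusted p = 0.463), and 0.04 without ish2 no-Dox replicate 3 (adjusted p = 0.337) and with upper quartile factors (adjusted p = 0.264). The TEAD1 effects differed by -0.44 (adjusted p = 9.23e-12).

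TEAD2 and TEAD3 are the other paralogs. TEAD2 fell in both constructs (log2 fold change -0.35 in ish, adjusted p = 9.36e-13, and -0.42 in ish2, adjusted p = 4.00e-14). TEAD3 rose by 0.12 in ish (adjusted p = 0.0013) and fell by 0.67 in ish2 (adjusted p = 2.90e-18). Per kilobase, TEAD4 made up 30.6, 30.5 and 29.7% of the 4 TEAD mRNAs in ish without Dox and 44.4, 43.2 and 44.7% with it. In ish2 its share was 30.6, 31.8 and 32.5% without Dox and 41.0, 41.4 and 40.8% with it. The TEAD4 share was thus higher in all 6 Dox libraries than in all 6 others, although the summed TEAD level went from 98.5 ± 0.59 to 122 ± 0.82 CPM per kilobase (SD, n = 3) in ish and from 100.6 ± 0.43 to 89.1 ± 0.77 in ish2. Shares rest on the exon length taken for each gene: with the longest annotated transcript of each gene instead, a length chosen after seeing the data, the mean TEAD4 share was 33.6, 48.1, 35.0 and 44.6% in ish without Dox, ish with Dox, ish2 without Dox and ish2 with Dox.

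**Figure D2:**
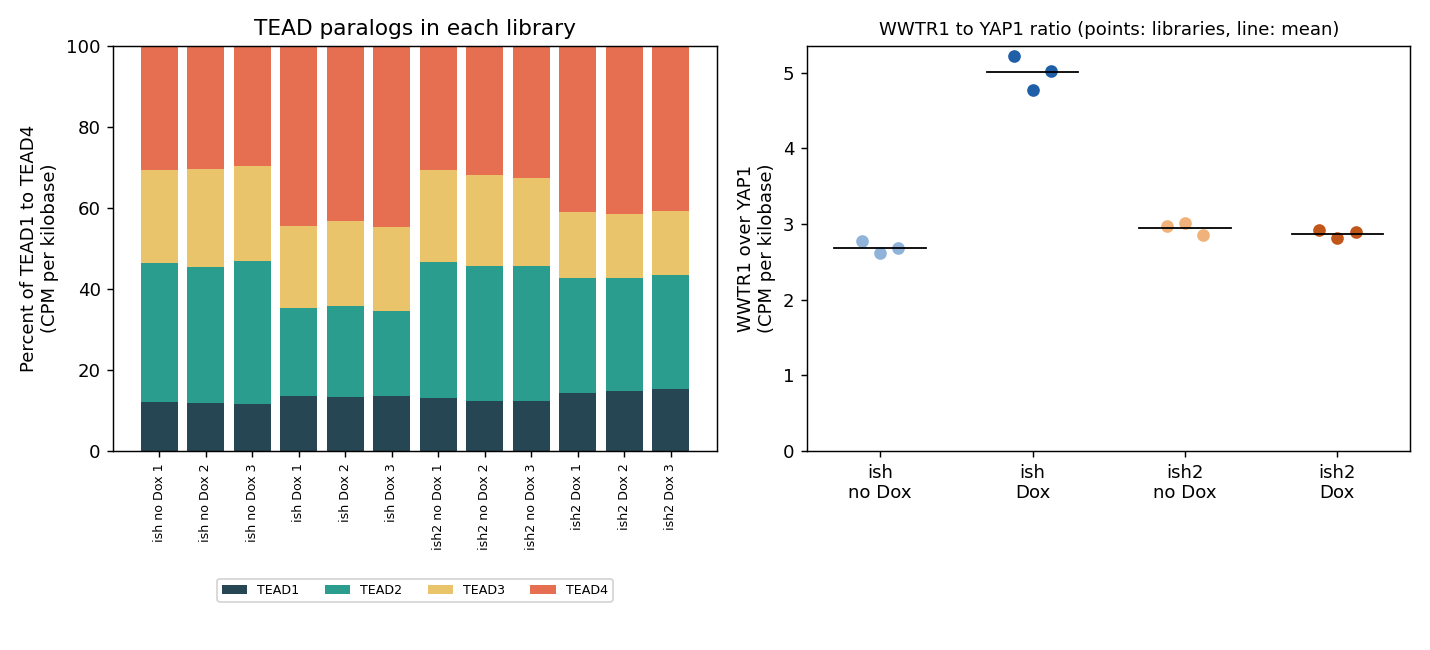
Left, percent of the summed CPM per kilobase of TEAD1 to TEAD4 held by each paralog (vertical axis) in each of the 12 libraries. Right, WWTR1 over YAP1 in CPM per kilobase, with points for libraries and lines for means; TEAD4 holds 40.8 to 44.7% in Dox libraries of both constructs and 29.7 to 32.5% without Dox, whereas the WWTR1 to YAP1 ratio is raised with Dox in ish and not in ish2.

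CTGF encodes connective tissue growth factor, a secreted matricellular protein and a widely used readout of YAP and TAZ (chr6:131948176-131951373, minus strand). It stood at 41.4, 38.1 and 41.4 CPM in ish without Dox and at 8.89, 8.87 and 9.08 with it. In ish2 it stood at 41.7, 39.8 and 37.6 without Dox and at 79.8, 77.9 and 80.7 with it. The untreated cultures of both constructs shared 1 range, and Dox libraries lay below it in ish and above it in ish2. CTGF fell 4.50-fold in ish (log2 fold change -2.17, SE 0.06, adjusted p = 7.30e-29) and rose 2.00-fold in ish2 (1.00, SE 0.04, adjusted p = 4.77e-22). The difference of 3.17 (SE 0.07, adjusted p = 1.01e-30) was exceeded by 2.41% of tested genes, and it was the largest among the 10. Its promoter is the one with 3 GGAATG cores shown above, and a link between cores and the size of change was not tested.

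CYR61 encodes another secreted protein of the CTGF family that is also read as a YAP and TAZ target (chr1:85580761-85583962, plus strand). Its levels were 31.4, 29.8 and 29.1 CPM in ish without Dox and 13.3, 12.9 and 12.8 with it. In ish2 they were 32.0, 31.0 and 30.3 without Dox and 33.2, 31.2 and 32.4 with it. CYR61 fell 2.31-fold in ish (log2 fold change -1.21, SE 0.05, adjusted p = 6.26e-22). Unlike CTGF, it did not pass in ish2 (0.05, adjusted p = 0.292, interval -0.033 to 0.14), where its groups overlapped. Per kilobase, CTGF was 1.41 ± 0.08 times CYR61 (SD, n = 3) in ish without Dox, 0.72 ± 0.02 with it, 1.34 ± 0.03 in ish2 without Dox and 2.59 ± 0.05 with it.

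ANKRD1 encodes a stress-responsive ankyrin-repeat protein of striated muscle, which binds titin and is also used as a YAP target (chr10:90912096-90921276, minus strand). It stood at 31.7, 25.2 and 29.5 CPM in ish without Dox and at 48.8, 45.3 and 46.5 with it. In ish2 it stood at 25.4, 25.1 and 26.4 without Dox and at 23.6, 23.0 and 22.8 with it. Its direction in ish was the reverse of that of CTGF and CYR61: it rose 1.63-fold (log2 fold change 0.70, SE 0.05, adjusted p = 5.61e-13). In ish2 it fell by 0.15 on the log2 scale (SE 0.06, adjusted p = 0.0359), a small fall that did not pass without ish2 Dox replicate 3 (-0.16, adjusted p = 0.0645) or without ish2 no-Dox replicate 3 (-0.14, adjusted p = 0.0739). The effects differed by -0.85 (adjusted p = 1.54e-10). Of the muscle markers, MYOG, MYH3 and CDH15 (1.00 in ish and -0.58 in ish2) moved in the same directions as ANKRD1 in both constructs. MYOD1 and DES rose in ish2, where ANKRD1 fell, and FGFR4 (-1.02) and PAX3 (-0.40) fell in ish, where it rose. PAX7 had a change of -0.003 in ish (adjusted p = 0.929) and fell in ish2 (-0.91). The part of these markers in the ANKRD1 result was not tested.

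The angiomotin genes moved in opposite directions. AMOTL1 (chr11:94706431-94876753, plus strand) stood at 142, 155 and 147 CPM in ish without Dox and at 115, 114 and 117 with it. In ish2 it went from 140.4, 133 and 133 to 224, 223 and 225. AMOTL1 fell 1.28-fold in ish (log2 fold change -0.36, SE 0.03, adjusted p = 3.67e-13) and rose 1.66-fold in ish2 (0.73, SE 0.03, adjusted p = 1.19e-21), with a difference of 1.09 (adjusted p = 9.95e-23). AMOTL2 (chr3:134355874-134375479, minus strand) did the reverse. Its levels were 39.8, 38.1 and 39.3 CPM in ish without Dox and 60.5, 63.0 and 61.6 with it, and 31.9, 36.6 and 34.3 in ish2 without Dox and 23.1, 22.5 and 23.0 with it. It rose 1.58-fold in ish (0.66, SE 0.04, adjusted p = 2.34e-17) and fell 1.50-fold in ish2 (-0.58, SE 0.05, adjusted p = 5.31e-13), with a difference of -1.24 (adjusted p = 1.87e-19). CTGF and AMOTL1 were thus lower in ish and higher in ish2, and ANKRD1 and AMOTL2 higher in ish and lower in ish2. Among all tested genes these patterns were called for 14.1% and 12% of genes.

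LATS2, the Hippo kinase that is itself a YAP target (chr13:20973032-21061547, minus strand), stood at 23.7, 23.9 and 23.9 CPM in ish without Dox and at 27.4, 24.8 and 24.2 with it. In ish2 it stood at 23.4, 23.8 and 23.0 without Dox and at 30.9, 32.0 and 31.5 with it. The ish groups did not overlap, but their difference of 0.09 on the log2 scale did not pass (SE 0.05, adjusted p = 0.0744, interval -0.00073 to 0.19). It was 0.03 without ish Dox replicate 1 (adjusted p = 0.556), the library with the highest level, and it passed without ish Dox replicate 3 (0.13, adjusted p = 0.0314) and with the size factors of DESeq2 (0.11, adjusted p = 0.0449). In ish2 LATS2 rose 1.34-fold (log2 fold change 0.43, SE 0.05, adjusted p = 1.20e-09), and the effects differed by 0.33 (adjusted p = 5.02e-05).

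The difference of the Dox effects was called for all 10 genes, where 72.6% of tested genes were called. It was higher in ish2 for 6 and lower for 4, where 37.4% and 35.2% of tested genes were, and it was at least 2-fold for 6 of them against 21.4% of tested genes. Those 6 were CTGF, YAP1, CYR61, AMOTL2, WWTR1 and AMOTL1. The constructs therefore gave measurably different changes in every gene of the group, with unequal falls of NT5E beside them. Whether the depth of the NT5E fall, the hairpin sequence or the response to Dox went with these differences cannot be told apart with 1 construct at each level.

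**Figure D3:**
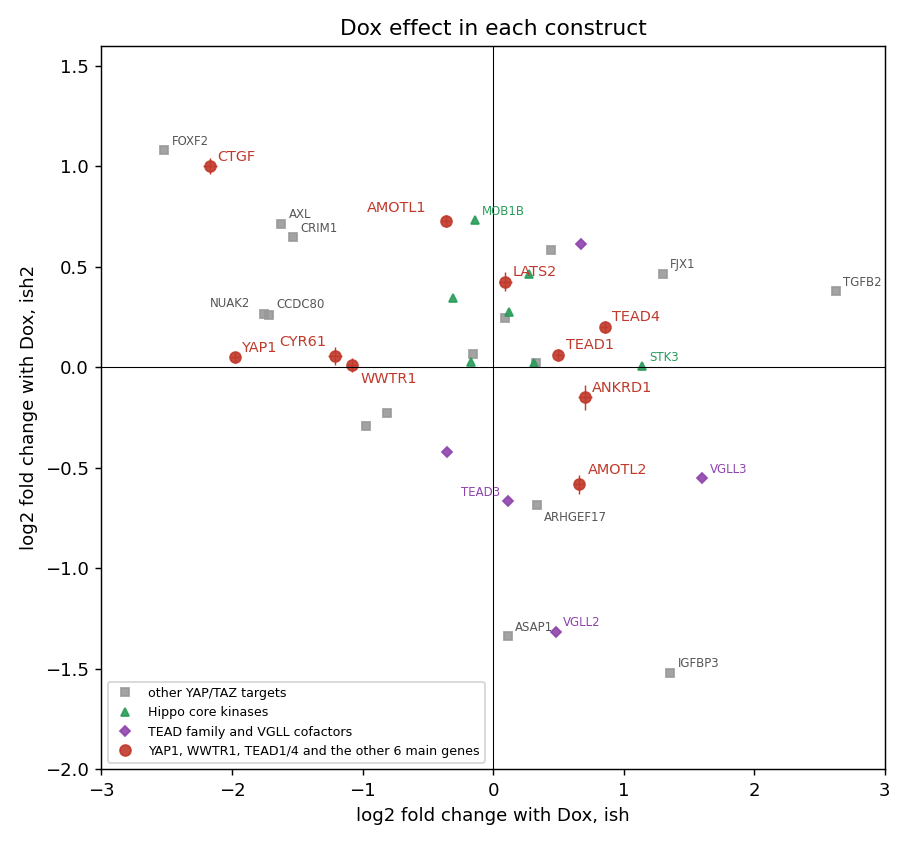
Log2 fold change with Dox in ish (horizontal axis) against that in ish2 (vertical axis) for the 10 genes (red, bars show the approximate SE), Hippo core kinases, TEAD and VGLL genes, and other YAP and TAZ targets. CTGF (-2.17 and 1.00) and AMOTL1 (-0.36 and 0.73) are at upper left, AMOTL2 (0.66 and -0.58) is at lower right, and YAP1, WWTR1 and CYR61 lie far left near 0 on the vertical axis.

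Before induction the constructs differed little in these genes. Comparing ish2 with ish without Dox, 5 of the 10 were called by edgeR, where 26.1% of tested genes were. Of these, 2 were higher and 3 lower, where 13.7% and 12.4% of tested genes were, 0 of the 10 differed by 2-fold or more, where 0.421% did, and 5 had groups that did not overlap, where 38.2% did. TEAD1 was higher in ish2 by 0.12 on the log2 scale (adjusted p = 0.0026), AMOTL1 lower (-0.13, adjusted p = 0.0017) and AMOTL2 lower (-0.19, adjusted p = 0.0013). TEAD4 (0.09, adjusted p = 0.0263) and ANKRD1 (-0.17, adjusted p = 0.036) were also called, but not stably. TEAD4 did not pass when ish no-Dox replicate 1, 2 or 3 or ish2 no-Dox replicate 2 or 3 was left out (adjusted p = 0.0522 to 0.106). ANKRD1 did not pass without ish no-Dox replicate 1 or 3, ish2 no-Dox replicate 1 or 2, or ish2 Dox replicate 2 (adjusted p = 0.0536 to 0.262), and its value without ish no-Dox replicate 1 was -0.09. YAP1, CTGF, CYR61 and LATS2 had changes of -0.05, -0.02, 0.05 and -0.03 (adjusted p = 0.171, 0.767, 0.491 and 0.753), and WWTR1 one of 0.08 (adjusted p = 0.0998). This comparison shares its libraries with both Dox comparisons.

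Per kilobase of exon, the order of the 10 means was the same in both untreated groups: WWTR1 was highest, then TEAD4, YAP1, CTGF, AMOTL1, ANKRD1, CYR61, TEAD1, AMOTL2 and LATS2. In ish without Dox the mean levels ran from 59.4 CPM per kilobase for WWTR1 and 29.8 for TEAD4 to 6.53 for AMOTL2 and 4.28 for LATS2, and the ranges of AMOTL1, ANKRD1 and CYR61 overlapped from neighbour to neighbour. In ish2 without Dox those of AMOTL1, ANKRD1, CYR61 and TEAD1 did, with CYR61 at 12.66 and TEAD1 at 12.65, so the order in these middle places does not go beyond the spread. With Dox in ish, TEAD4 was first at 53.8 and WWTR1 second at 28.0, while YAP1 at 5.60 came after AMOTL2 at 10.3, and CTGF at 3.83 was last. No neighbours overlapped in that group. In ish2 with Dox, CTGF at 34.0 came next after WWTR1 at 63.4 and TEAD4 at 36.6, and AMOTL2 at 3.82 had become the lowest. With the length of the longest transcript some middle ranks changed places, among them TEAD1 with CYR61 in ish without Dox.

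The kinase module above YAP and TAZ was described from a list of 7 genes beside LATS2. All 7 were called in ish, 4 higher and 3 lower, and 4 in ish2, all higher, where 78.6% and 65% of all tested genes were called. STK3, the gene of the kinase MST2, went from 23.6 ± 0.78 to 52.0 ± 2.11 CPM (SD, n = 3) in ish, a rise of 1.14 on the log2 scale (SE 0.05, adjusted p = 1.10e-22), and from 22.3 ± 1.15 to 22.4 ± 1.20 in ish2 (0.00, adjusted p = 0.944). Its paralog STK4 fell by 0.17 in ish and had a change of 0.03 in ish2 (adjusted p = 0.377). The other genes that rose in ish were LATS1 (0.27), NF2 (0.31), the gene of the membrane scaffold Merlin, and MOB1A (0.12), a kinase coactivator, and those that fell were SAV1 (-0.31), the scaffold of MST1 and MST2, and MOB1B (-0.14). In ish2, MOB1B (0.73), LATS1 (0.47), SAV1 (0.34) and MOB1A (0.28) rose, and NF2 had a change of 0.02 (adjusted p = 0.653). The difference between constructs was called for each of the 7, and for MOB1A it did not pass without ish no-Dox replicate 3 (0.12, adjusted p = 0.0527).

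VGLL proteins compete with YAP and TAZ for TEAD, and VGLL2 and VGLL3 are expressed in muscle. VGLL1 had no reads. VGLL2 went from 213 ± 8.18 to 297 ± 4.27 CPM (SD, n = 3) in ish, a rise of 0.48 (SE 0.05, adjusted p = 4.91e-07), and from 220.4 ± 18.8 to 88.5 ± 3.18 in ish2, where it fell by 1.31 (SE 0.05, adjusted p = 2.86e-11). VGLL3 rose in ish (1.603, SE 0.08, adjusted p = 6.97e-11) and fell in ish2 (-0.55, SE 0.10, adjusted p = 0.00022). VGLL4 rose in both, by 0.68 (adjusted p = 8.58e-21) and 0.62 (adjusted p = 1.54e-18), with a difference of -0.06 (SE 0.04, adjusted p = 0.231). The differences for VGLL2 (-1.79) and VGLL3 (-2.16) were called (adjusted p = 1.51e-11 and 8.69e-10).

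Further targets came from a published signature of YAP and TAZ activity, of which 16 genes were left once the 5 that belong to the group and NT5E, itself a gene of the signature, had been taken out. In ish 8 rose and 8 fell, 8 of them by at least 2-fold, and in ish2 9 rose and 5 fell, 3 of them by at least 2-fold. Of all tested genes, 78.6% and 65% were called, and 17.8% and 6.14% by at least 2-fold. Their median log2 fold change was -0.03 in ish and 0.25 in ish2, against -0.01 and 0.01 over all tested genes. The largest change in ish was the rise of TGFB2, a secreted growth factor, from 3.03 ± 0.29 to 18.7 ± 1.16 CPM (log2 fold change 2.63, SE 0.08, adjusted p = 9.13e-26). NUAK2, a stress kinase (-1.75, SE 0.10, adjusted p = 5.31e-18), CCDC80, a matrix protein (-1.72, SE 0.04, adjusted p = 6.33e-30), AXL, a receptor tyrosine kinase (-1.62, SE 0.06, adjusted p = 1.16e-14), and CRIM1, a membrane protein that binds growth factors (-1.53, SE 0.04, adjusted p = 1.04e-23), fell in ish. AXL and CRIM1 rose in ish2, by 0.71 (adjusted p = 3.65e-10) and 0.65 (adjusted p = 1.71e-15). The largest ish2 change was the fall of IGFBP3, a binding protein of insulin-like growth factors, from 40.2 ± 2.59 to 14.0 ± 0.89 CPM (-1.52, SE 0.08, adjusted p = 1.95e-10), and the gene rose by 1.36 in ish (adjusted p = 8.60e-12). ASAP1 and ARHGEF17, regulators of small GTPases, fell in ish2 by 1.34 (adjusted p = 9.15e-29) and 0.69 (adjusted p = 1.44e-18). Across the 16, 5 were lower in ish and higher in ish2, 3 the reverse, 4 higher in both and 2 lower in both, where the shares over all tested genes were 14.1%, 12%, 13.8% and 14.1%, so the signature did not move as 1 block in either construct.

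**Figure D4:**
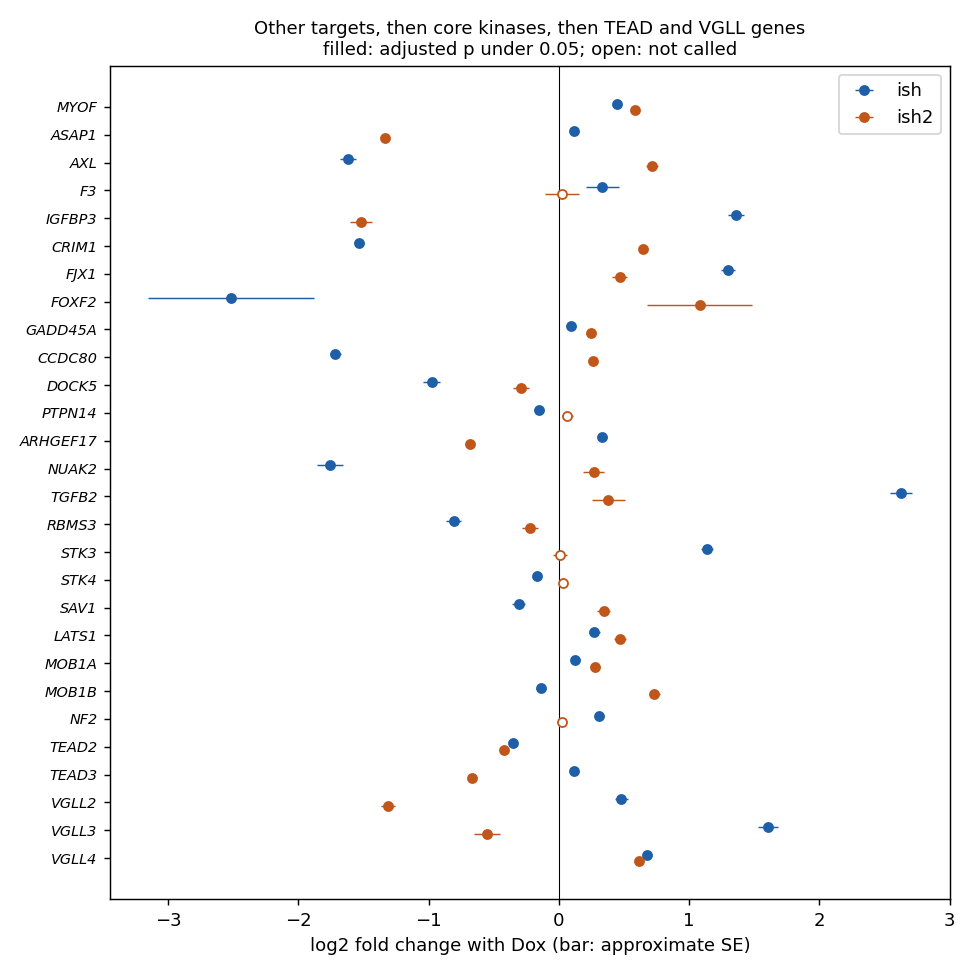
Log2 fold change with Dox (horizontal axis, bars show the approximate SE) in ish (blue) and ish2 (orange) for the 16 other YAP and TAZ targets, the 7 core kinase genes and the TEAD and VGLL genes outside the group. Filled points passed an adjusted p under 0.05; TGFB2 (2.63) and IGFBP3 (1.36 in ish, -1.52 in ish2) lie far from 0, and STK3 is raised in ish and sits at 0 in ish2.

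Upstream of the kinases, 37 of 40 listed regulators were tested. In ish 15 rose and 15 fell, and in ish2 18 rose and 12 fell, 30 of 37 called in each, where 78.6% and 65% of all tested genes were called. AMOT, the other angiomotin, had the largest change in ish, from 4.81 ± 0.23 to 1.19 ± 0.16 CPM (log2 fold change -2.01, SE 0.14, adjusted p = 3.76e-15), and stood at 6.44 ± 0.92 and 6.92 ± 0.45 in ish2 (0.10, adjusted p = 0.361). NUAK1, a kinase, rose by 1.85 in ish (adjusted p = 1.19e-23), and TNIK, a kinase of the MAP4K family, by 1.08 (adjusted p = 1.95e-27). Its relative MINK1 fell by 1.04 (adjusted p = 1.00e-25). In ish2, DCHS1, a protocadherin, fell by 0.64 (adjusted p = 5.98e-16) and DLG5 by 0.51 (adjusted p = 6.20e-20). FRMD6 rose there by 0.59 (adjusted p = 8.72e-16) and TAOK3, a kinase, by 0.51 (adjusted p = 4.72e-15). DCHS1 (-0.60), DLG5 (-1.03) and TAOK3 (0.77) moved in the same directions in ish, where FRMD6 had a change of -0.06 (adjusted p = 0.174). RASSF6 had the largest ish2 change (1.70, SE 0.26, adjusted p = 6.31e-07) at a low level of 0.439 ± 0.03 to 1.43 ± 0.35 CPM.

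Actin-linked SRF and MRTF target genes share control with CTGF, CYR61 and ANKRD1. Of 17 such genes outside the sarcomere 16 were tested, and 5 rose and 9 fell in ish (median -0.24), and 2 rose and 12 fell in ish2 (median -0.26). Over all tested genes 39.1% rose and 39.5% fell in ish (median -0.01), and 33.9% rose and 31.1% fell in ish2 (median 0.01). The genes whose log2 CPM followed CTGF most closely over the 12 libraries were PTGS1 (Pearson r = 0.9992), IER5 and RNF13, and those nearest to YAP1 were MEST (r = 0.9995), ETV4 and IL4R. BCAR3, SAMD8 and COL4A1 were nearest to CYR61, with r = 0.9989 for BCAR3, and HSPB3, CASZ1 and CDK11A nearest to ANKRD1, with r = 0.9897 for HSPB3. The 12 points fall into 4 groups and share their library preparation, so these values are a description.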

How the data were processed

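RNA was measured in 12 libraries of RD cells by stranded mRNA sequencing (75-base paired-end reads, per the labels' protocols). The deposited values are raw read counts per gene symbol, given by the authors without normalization. Per the submitters' processing notes, the build was GRCh38 and the tools included STAR 2.7.3a, Trim Galore 0.6.4, Subread 1.6.3 and featureCounts, with no roles given, and the annotation used for counting is not stated. The 5 rows for unassigned reads held 21% to 24.4% of the reads and were left out. Sh1 in the column headers was taken as the construct titled ish, since the other is Sh2 in the headers and ish2 in the titles.

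Genes were filtered with filterByExpr (15206 of 26485 kept) and scaled by TMM. One model of 4 group means over all 12 libraries was fitted with edgeR 4.0.16 (glmQLFit, robust, in R 4.3.3 with limma 3.58.1), and 4 contrasts were tested by its quasi-likelihood test: Dox in ish, Dox in ish2, the former subtracted from the latter, and the untreated groups (ish2 minus ish). Every adjusted p in the text is from edgeR, adjusted by Benjamini-Hochberg over all tested genes, unless another tool is named. SE is the absolute log2 fold change over the square root of F and is approximate, as are the intervals. Levels per kilobase use the union of annotated GENCODE exons, and promoters are from RefSeq. The fit was also run on simulated data with changes planted in a small part of the genes at a constant spread. Most tested genes were called in the real Dox comparisons, so that run does not speak to calling under such wide change.

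The 10 genes and the lists were chosen with earlier results of these data known. All 10, NT5E, the core kinase, TEAD and VGLL genes and 4 muscle markers are named. Outside this rule, the muscle markers MYF5, CDH15, FGFR4, PAX3 and PAX7 and markers of other cell types are also named. From the other target and upstream lists, up to 5 called genes per construct with the largest change and at least 1 CPM in the higher group are named, except 1 that is not reported here. Same-numbered libraries of a construct did not deviate together (correlations -0.0798 to 0.0295), so no block was used. Alternatives were other scaling factors, no low-count filter, DESeq2 1.42.0, a replicate block, each construct alone, leaving out each library, and another exon length.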

Additional observations from a re-analysis of the deposited data

Results flagged for a closer look

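All 10 genes were picked out because the effect of Dox differed between the constructs by the edgeR test of that difference. By the same test 72.6% of all tested genes were called. As ish2 minus ish on the log2 scale, the differences were 2.03 for YAP1, 1.10 for WWTR1, -0.44 for TEAD1, -0.65 for TEAD4 and 3.17 for CTGF. They were 1.27 for CYR61, -0.85 for ANKRD1, 1.09 for AMOTL1, -1.24 for AMOTL2 and 0.33 for LATS2. With CDH15 and DCN left out, a further 18 genes that the text names were called in opposite directions and had a called difference. Part of these were named for the size of their changes in these same data, so their number cannot be set against a share. Of all tested genes, 14.1% were called lower in ish and higher in ish2 and 12% the reverse. Higher in ish2 than in ish were the changes of AXL (2.34), CRIM1 (2.18), NUAK2 (2.02), CCDC80 (1.98), CEP126 (1.48), MINK1 (1.22), ENG (1.08), MOB1B (0.87) and SAV1 (0.65). Lower in ish2 were those of MYOG (-4.87), MYH3 (-4.48), IGFBP3 (-2.88), VGLL3 (-2.16), VGLL2 (-1.79), ASAP1 (-1.45), TNIK (-1.40), ARHGEF17 (-1.02) and TEAD3 (-0.78). The ish2 call of NUAK2 did not pass without ish2 no-Dox replicate 1 (0.17, adjusted p = 0.0801). DCN, at 0 reads in ish2 with Dox, is given by its levels only. No test of single outlying libraries was run on groups of 3.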

How the results depend on the processing

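No value of the 10 genes that was called turned direction under any alternative run. The difference between constructs kept its side of the threshold in all 180 gene and alternative pairs, and the ish effect in 188 of 190, both exceptions being LATS2. In ish2 187 of 190 kept it; TEAD1 passed in 1 alternative and ANKRD1 did not pass in 2, as given above. Without Dox, 166 of 180 kept it: WWTR1 passed in 2 (0.08 with all genes kept, adjusted p = 0.0144, and 0.12 in the fit that left out ish2 no-Dox replicate 3, adjusted p = 0.0148), TEAD4 did not pass in 5 and ANKRD1 in 7, among them DESeq2 (-0.16, adjusted p = 0.0747) and its size factors in edgeR (-0.16, adjusted p = 0.0511). The number of the 10 genes called there ran from 3 to 5 when 1 library was left out. It was 3 without ish no-Dox replicate 1, without ish no-Dox replicate 3 or without ish2 no-Dox replicate 2. Of all genes, 3422, 3015 and 3704 were called in these fits, against 3974 with all libraries. Over all fits without 1 library, that number ran from 2985 to 4099. The cause was not tested. With the replicate block, 9, 6, 10 and 5 of the 10 were called in ish, ish2, the difference and without Dox, the same counts as without it, and 11926, 9835, 11017 and 3918 of all genes against 11945, 9883, 11039 and 3974. The biological coefficient of variation was 2.44%, so small folds passed. Counting error weighs most on the genes with fewest reads, and the lowest count of the 10 was 267.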

Other observations

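Protein-coding neighbours of YAP1 within 500000 bases were looked up by position after the fall of YAP1 in ish had been seen. CEP126, a centrosome gene upstream of YAP1, went from 2.36 ± 0.04 to 1.15 ± 0.17 CPM (SD, n = 3) in ish (log2 fold change -1.04, SE 0.16, adjusted p = 3.34e-07 in edgeR) and rose in ish2 (0.44, SE 0.14, adjusted p = 0.0049). C11orf70, listed by RefSeq as an older symbol of CFAP300 and lying between CEP126 and YAP1, fell by 0.17 in ish (SE 0.06, adjusted p = 0.0104) and had a change of 0.10 in ish2 (adjusted p = 0.148). On the other side of YAP1, BIRC2, an inhibitor of apoptosis, rose by 0.37 in ish (adjusted p = 2.62e-11) and 0.23 in ish2 (adjusted p = 2.89e-06). TMEM123 had changes of -0.02 (adjusted p = 0.543) and -0.01 (adjusted p = 0.825). The other protein-coding neighbours, TRPC6, ANGPTL5, BIRC3, MMP7, MMP8, MMP20 and MMP27, were not among the tested genes under these symbols. None of the neighbours with values fell as far as YAP1 in ish.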
